A study of Bos taurus with 22 samples.

Results

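The genes of bovine major histocompatibility complex (MHC) class II were represented on the array by 12 of 9155 named genes, measured by 20 of 24016 bovine probe sets. They were chosen by name: every probe set annotated with a single gene symbol that begins with BOLA-D, and any probe set of CD74. CD74, the invariant chain, was the single symbol of no probe set and is not analysed here. The series measured RNA of subcutaneous white adipose tissue, taken from the back of 11 Holstein heifers, on Affymetrix bovine arrays. The 11 postpartum arrays came from biopsies on day 14 after calving, in early lactation, and the 11 prepartum arrays from the same heifers 30 d before calving. All heifers were calving for the first time at 24 to 28 months of age and had been raised on 1 farm on the same diet, which was offered ad libitum before calving, and no dietary treatment was imposed.

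Class II molecules are pairs of an alpha and a beta chain that carry peptides from engulfed proteins to the cell surface and show them to CD4+ T cells. The DR and DQ genes encode the classical pairs, DM loads peptides inside the cell, DO restrains DM, and DY is a ruminant pair. In cattle DRA hardly varies between animals, DRB3 is highly polymorphic, and the number of DQ genes differs between haplotypes. In adipose tissue class II is carried mainly by macrophages, dendritic cells and B cells.

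The values are signals in the arrays' arbitrary intensity units, and changes and standard errors (SE) are on the log2(signal + 7.78) scale, where 7.78 is the arrays' median 20th percentile of bovine probe sets. A change is postpartum minus prepartum within a cow, and "called" means an adjusted p under 0.05 in a limma model with cow as a block, adjusted over 14410 probe sets. Of the 20 class II probe sets 16 passed the filter on low signal, and 4 did not (BOLA-DOA, BOLA-DYA, BOLA-DYB and the BOLA-DQA2 probe set Bt.4751.2.S1_at). A probe set reads only the sequence it was designed on, so a low signal from little RNA, from an absent gene copy and from an allele that differs from the probes cannot be told apart. Probe sets whose names end in _s_at, _x_at or _a_at can share probes' targets with related transcripts, and levels are therefore not ranked between probe sets.

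The tissue label matched its markers. FABP4, the fat-cell fatty acid carrier, had signals of 6246 to 10489 postpartum and 6329 to 11532 prepartum, and the adipocyte hormone ADIPOQ had 736 to 3144 postpartum and 1339 to 3091 prepartum. Some arrays stood apart. The summed signal of 9 skeletal muscle genes was 61335 in the postpartum and 6279 in the prepartum array of cow 384, 7663 in the postpartum array of cow 386, and 39182 in the prepartum array of cow 387, against 1290 to 2210 in the other 18 arrays. The 2 tested epidermal genes summed to 194 to 288 in the 11 postpartum arrays. Before calving they summed to 793 in cow 331, 6188 in cow 341, 877 in cow 330 and 2988 in cow 382, and to at most 325 in the other cows. The gene KRT10 carried these high sums and reached 6002 prepartum. The other gene, KRT5, was 109 to 234 prepartum and 81.7 to 234 postpartum. The 2 arrays labelled cow 387 also did not resemble each other. The correlation of their deviations from the group means was -0.09, whereas it was 0.18 to 0.43 in the other 10 pairs. Class II results that rest on that pair are therefore given with and without it.

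Whether class II RNA differed between early lactation and late pregnancy was the comparison the sampling was built for. None of the 16 tested class II probe sets was called by limma, with 0 higher and 0 lower, where 3.43% of all tested probe sets were called (1.44% higher and 1.98% lower). An unadjusted p under 0.05 was reached by 1 of the 16, against 19.8% of all tested. The ordinary paired test without limma's shared variance also called 0 of the 16, against 2.02% of all tested. The fitted change was below 0 for 14 of the 16, where 47.5% of all tested probe sets were below 0, and its median was -0.16 against 0.01 over all tested probe sets. The lean below 0 depended on a few cows. Without cow 384 alone, whose postpartum array had the high muscle signal, the median was -0.04 with 11 of 16 below 0. Leaving out cows 330, 331, 341 and 382, whose prepartum arrays had the high KRT10 signal, gave -0.03 with 11 of 16. Without cow 331 alone it was -0.09 with 11 of 16, and without the pair labelled 387 it was -0.14 with 14. The members share cows and overlap in sequence, so these counts are not of independent genes. Their standard errors were 0.11 to 0.36, and the largest change in size that was fitted was -0.55.

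BOLA-DRA encodes the alpha chain of the DR pair. Its signal had a lowest, median and highest value of 344, 1147 and 1551 postpartum and 873, 1359 and 1718 prepartum. The groups overlapped, and the lowest value belonged to the postpartum array of cow 384, which also had the high muscle signal. The change was -0.21 (SE 0.188, 95% interval -0.61 to 0.19, adjusted p = 0.584 in limma, n = 11 cows), lower postpartum in 7 cows and higher in 4. Without cow 384 it was -0.03 (adjusted p = 0.905). In a tissue sample, fewer class II-bearing cells and less RNA per cell cannot be told apart.

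BOLA-DRB3, the beta chain that pairs with DRA, had 2 probe sets. Bt.5356.1.S1_s_at had signals of 493, 1055 and 1423 postpartum (lowest, median, highest) and 697, 1063 and 1618 prepartum. Its groups overlapped almost fully and the change was -0.13 (SE 0.15, adjusted p = 0.667 in limma). Bt.28011.1.S1_at had 81.5, 182 and 847 postpartum and 90.2, 281 and 795 prepartum, again with overlapping groups. Its change of -0.55 (SE 0.186, 95% interval -0.95 to -0.15, lower in 8 of 11 cows) had the lowest p of the 16, unadjusted p = 0.0102, and missed the threshold after adjustment (adjusted p = 0.117 in limma). Without the pair labelled 387 the change was -0.60 (adjusted p = 0.102).

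The DM chaperones differed least between the times. BOLA-DMA had 74.3, 108 and 140 postpartum and 64.0, 100 and 147 prepartum (lowest, median, highest), with a change of -0.02 (SE 0.108, 95% interval -0.25 to 0.21). BOLA-DMB had 140, 262 and 452 postpartum and 222, 265 and 330 prepartum, with a change of -0.00024 (SE 0.138, 95% interval -0.30 to 0.30). In both genes the medians lay close together, and in BOLA-DMB the postpartum values spread beyond the prepartum ones at both ends.

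Among the DQ genes, 9 of the 11 tested probe sets had a change below 0 and none was called. The exceptions in sign were both probe sets of BOLA-DQA1, an alpha chain gene. Bt.22867.1.S1_at had 49.0, 81.1 and 142 postpartum and 45.5, 65.1 and 154 prepartum, a change of 0.24 (SE 0.132, adjusted p = 0.332 in limma) that was higher in 8 of 11 cows. Bt.22867.1.S1_x_at, from the same target, had a change of 0.25 (SE 0.176, adjusted p = 0.464). The groups overlapped in both.

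**Figure D1:**
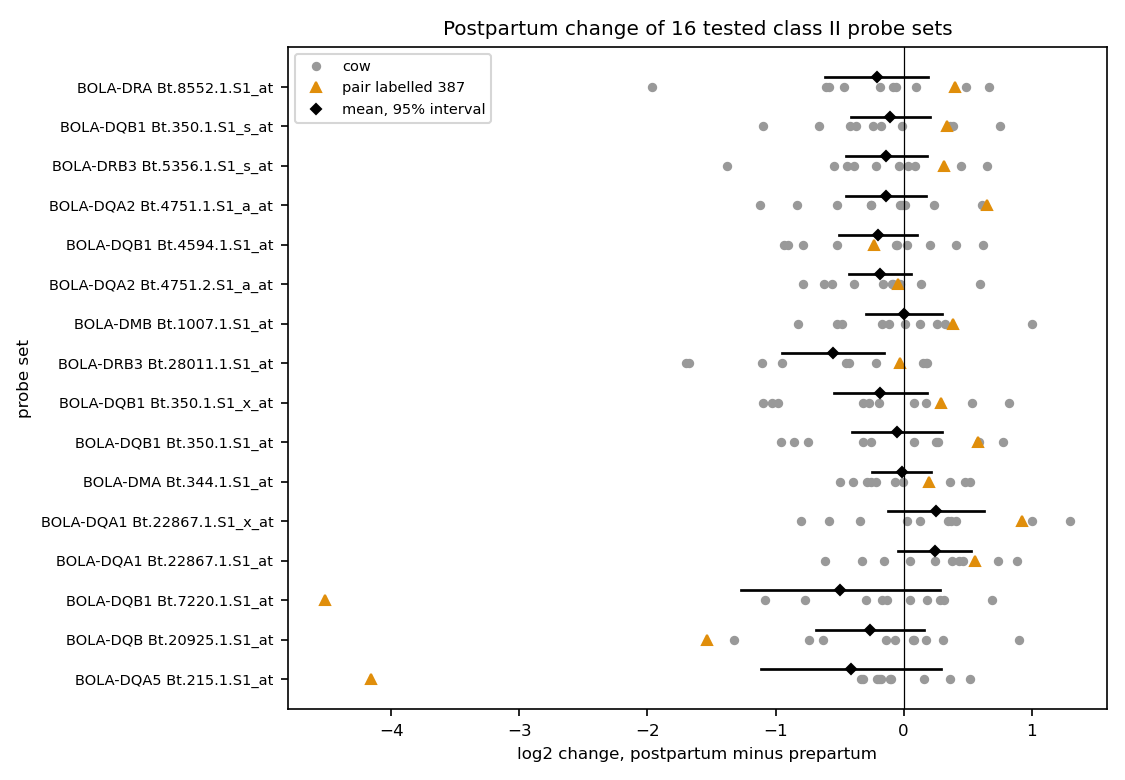
Change of each of the 16 tested class II probe sets, postpartum minus prepartum on the log2 scale, with a grey circle per cow, an orange triangle for the pair labelled 387, and a black diamond with a bar for the fitted mean and its 95% interval. All intervals but that of BOLA-DRB3 Bt.28011.1.S1_at, -0.95 to -0.15, include 0, and the triangles of BOLA-DQA5 and BOLA-DQB1 Bt.7220.1.S1_at lie beyond -4.

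The 4 probe sets below the filter were dim in nearly all arrays. BOLA-DYA, the alpha chain of the ruminant DY pair, had 1.34, 9.04 and 14.5 postpartum and 0.758, 5.71 and 10.99 prepartum (lowest, median, highest). It was higher postpartum in 11 of 11 cows by a mean of 0.22 (SD 0.17, n = 11), although the groups overlapped. In a limma fit without the filter its adjusted p was 0.290 over 24016 probe sets, so the difference was not called. BOLA-DYB, its beta partner, had a mean change of -0.19 (SD 0.33) and was higher in 5 of 11 cows. BOLA-DOA, the alpha chain of the DO inhibitor of DM, had a mean change of 0.08 (SD 0.51), and the dim BOLA-DQA2 probe set Bt.4751.2.S1_at had -0.15 (SD 0.70).

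Where the time of sampling left class II without a call, the individual cow did not. A limma F-test across the 11 cows called 8 of the 16 class II probe sets, against 2.15% of all 14410 tested. They were 7 of the 11 DQ probe sets, 1 of the 3 DR probe sets and 0 of the 2 DM probe sets. The 8 include BOLA-DQA5 and BOLA-DQB1 Bt.7220.1.S1_at, which passed the filter only through the arrays in which they were high. The counts and medians of this paragraph were not computed without these 2. BOLA-DQB, also among the 8, had a mean raised by a few high arrays and was not left out either. The share of a probe set's variation over the 22 arrays that lay between cows had a median of 80.2% in the 16 class II probe sets and 54.3% over all tested. The share with time had a median of 1.64% against 4.27%, and the residual share 17.0% against 36.3%. The range of the cow means had a median of 1.87 on the log2 scale, against 0.79 over all tested.

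Without the pair labelled 387 9 of the 16 were called, against 2.16% of all tested. Without cow 382 it was 5 of 15, against 1.35%, and without cow 384 it was 8 of 16, against 5.42%. BOLA-DQA5, high in cow 382, was under the filter and not tested when that cow was left out. Over the 11 cows left out in turn the member count was 5 to 9 and the share of all tested 1.09% to 5.42%. The codes at the end of the titles divide the cows into 2 sets, called array sets here, with 5 cows in the first and 6 in the second. What the codes stand for is not stated. Part of the differences between cows can also be a difference between these sets. Compared within the sets, 7 of the 16 were called, against 0.43% of all tested, and BOLA-DQB1 Bt.350.1.S1_at was lost (adjusted p = 0.318). The change with time did not differ between the sets at the threshold in any of the 16 (0 called, against 0% of all tested; 0 at an unadjusted p under 0.05, against 3.58%).

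**Figure D2:**
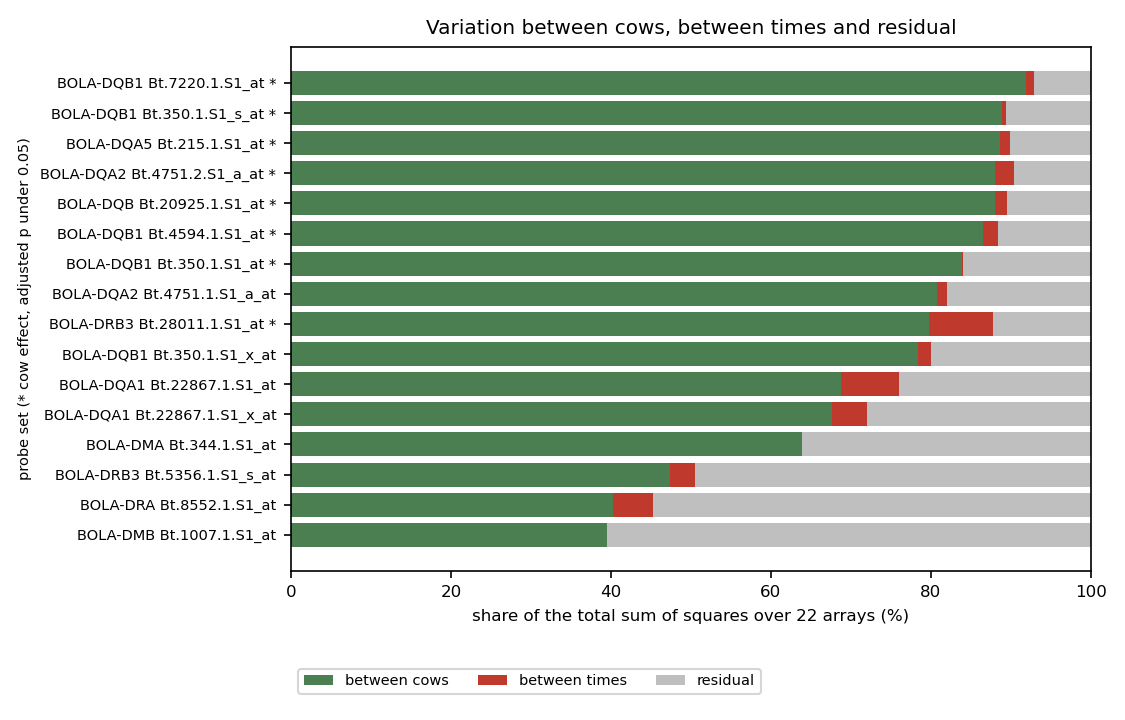
Share of the total sum of squares over 22 arrays, in %, that lay between cows (green), between postpartum and prepartum (red) and in the residual (grey), for each of the 16 tested class II probe sets, with an asterisk for those called for cow. The green share runs from 39.5% in BOLA-DMB to 91.9% in BOLA-DQB1 Bt.7220.1.S1_at, and the red share is at most 8.07%.

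Among the probe sets not called for cow were BOLA-DRA, with 40.2% of its variation between cows (adjusted p = 0.670 in the F-test), BOLA-DRB3 Bt.5356.1.S1_s_at with 47.3% (adjusted p = 0.576), BOLA-DMA with 63.8% (adjusted p = 0.413) and BOLA-DMB with 39.5% (adjusted p = 0.758). In these genes the range of the cow means was 0.72 to 1.05 on the log2 scale. The 2 BOLA-DQA1 probe sets, with 68.8% and 67.6% between cows, were not called either (adjusted p = 0.184 and 0.192).

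In 2 of the 20 class II probe sets the level was either high or low and followed the cow. The rule was a gap of at least 2 on the log2 scale between neighbouring ordered values, with at least 2 arrays on each side and at least 10 of the 11 cows with both arrays on 1 side. It was met by 7 of all 24016 bovine probe sets (0.0291%), while 129 (0.537%) had such a gap with or without the cow condition. The same 2 class II probe sets met it with the pair labelled 387 left out, when 0.0291% of all bovine probe sets did. For these 2 that outcome was fixed in advance, because no other cow crossed the gap in either.

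BOLA-DQB1 Bt.7220.1.S1_at, a probe set for a DQ beta chain, was on the high side in both arrays of cows 360, 382, 384 and 386. Postpartum it had 610 in cow 360, 453 in cow 382, 185 in cow 384 and 332 in cow 386. Prepartum it had 375 in cow 360, 558 in cow 382, 401 in cow 384 and 374 in cow 386. The other cows, 387 apart, were between 1.85 and 5.99 postpartum and between 0.524 and 15.7 prepartum. Both levels were thus present at both times and no cow but 387 crossed the gap, which lay between signals of 15.7 and 185. The gap spanned 3.04 on the log2(signal + 7.78) scale, and since its low side is near the added 7.78 no fold is given. Across cows the F-test gave an adjusted p of 0.00249, while the change with time was -0.49 (SE 0.364, adjusted p = 0.492 in limma).

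BOLA-DQA5 Bt.215.1.S1_at, for a DQ alpha chain, was high in fewer cows. It had 403 in cow 382 and 332 in cow 386 postpartum, and 509 and 356 in the same cows prepartum. In the other 8 cows, 387 apart, it lay between 6.23 and 21.9 postpartum and between 2.01 and 15.3 prepartum. The low values of both probe sets lie around 7.78, and the gap of BOLA-DQA5, between signals of 21.9 and 332, was 3.52 on that scale. The F-test gave an adjusted p of 0.00575, and the change with time was -0.41 (SE 0.328, adjusted p = 0.528 in limma). On their low sides BOLA-DQA5 and BOLA-DQB1 Bt.7220.1.S1_at were at most 4.89 and 4.55 on the log2 scale, under the filter value of 5.05. Both therefore passed the filter through their high arrays. Their F-tests read the same values as the rule of 2 levels and are not separate support for it. Each cow high for BOLA-DQA5 was also high for BOLA-DQB1 Bt.7220.1.S1_at, while cows 360 and 384 were high for BOLA-DQB1 Bt.7220.1.S1_at alone.

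The pair labelled 387 was the exception in both. BOLA-DQA5 had 15.5 in its postpartum array and 406 in its prepartum array, and BOLA-DQB1 Bt.7220.1.S1_at had 12.0 postpartum and 444 prepartum. These are changes of -4.15 and -4.52 on the log2 scale, whereas the other 10 cows changed by at most 0.52 and 1.09 in size. Without the pair, the postpartum change was -0.04 (SE 0.119, adjusted p = 0.890 in limma) for BOLA-DQA5 and -0.09 (SE 0.158, adjusted p = 0.781) for BOLA-DQB1 Bt.7220.1.S1_at. The share between cows was then 99.4% and 99.0%, which follows from leaving out the only pair that crossed the gap. The pair was split across the gap in 4 of the 7 probe sets with 2 levels set by cow. Whether its 2 arrays came from the same animal was not tested.

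Another probe set came close to the same split. BOLA-DQB Bt.20925.1.S1_at, for a DQ beta chain, was highest in the very arrays in which BOLA-DQA5 was high: 164 and 100 in cows 382 and 386 postpartum, and 181, 95.04 and 140 in cows 382, 386 and 387 prepartum. Elsewhere it was at most 46.8 postpartum and 33.0 prepartum. Its gap of 0.91 on the log2 scale did not meet the rule. The postpartum array of 387 had 43.3, and the F-test across cows gave an adjusted p of 0.00997. The mean of BOLA-DQB, 5.43 on the log2 scale, was little above the filter value and was raised by these high arrays. Its F-test reads the same values as this split and is not separate support for it.

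**Figure D3:**
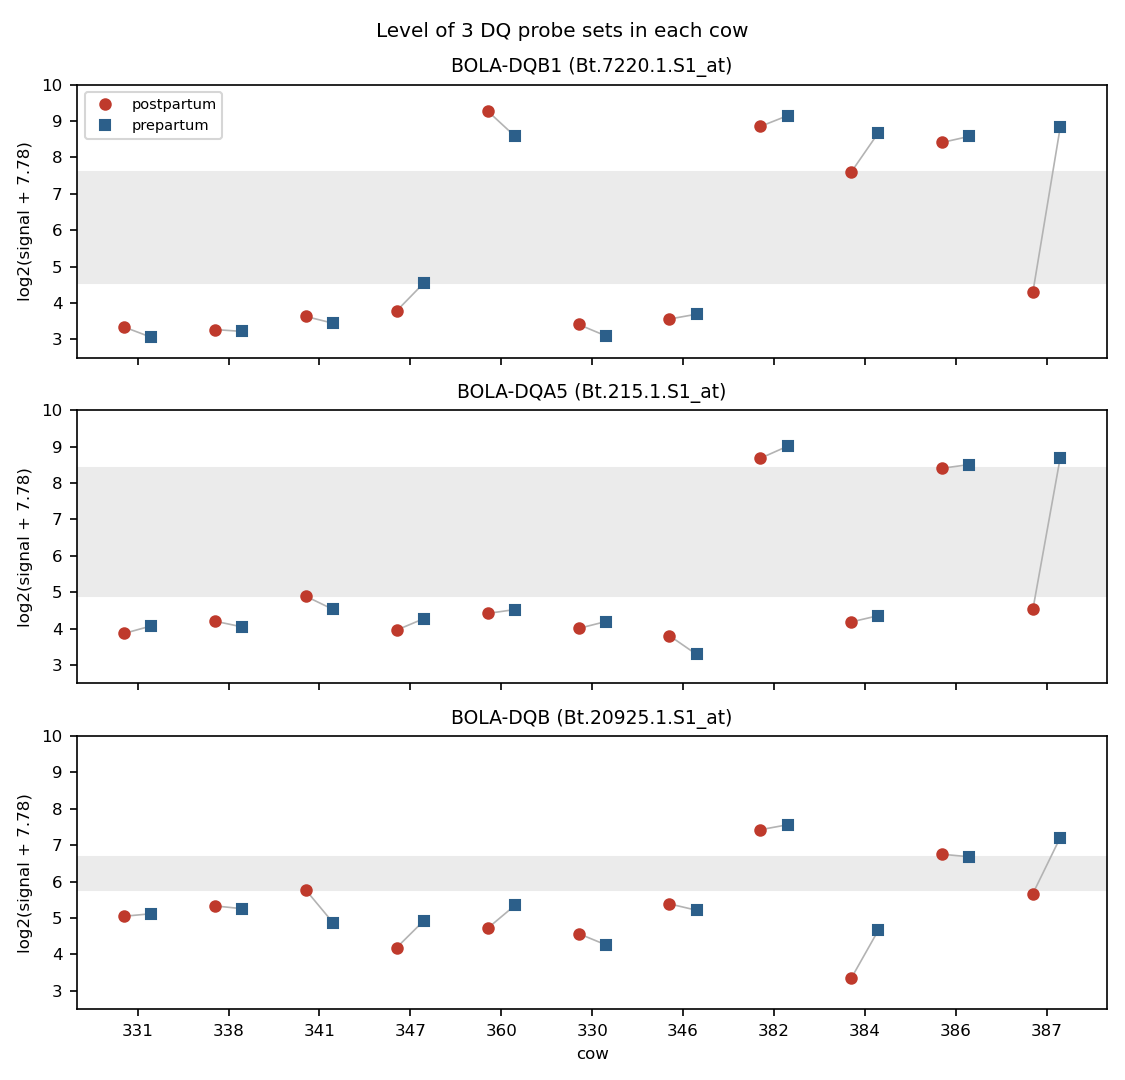
log2(signal + 7.78) of BOLA-DQB1 Bt.7220.1.S1_at, BOLA-DQA5 and BOLA-DQB in each cow, with the postpartum array as a red circle left of the prepartum array as a blue square, joined by a line. The grey band is the widest gap between neighbouring values, 3.04, 3.52 and 0.91, and only the line of cow 387 crosses it.

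Of the other probe sets that met the rule, BOLA, a class I heavy chain gene, divided the arrays exactly the opposite way to BOLA-DQA5. It was low in the 5 arrays in which BOLA-DQA5 was high and high in the other 17, with a gap of 3.15 on the log2 scale. Its change in the pair labelled 387 was 8.82, against -4.15 for BOLA-DQA5. None of the 7 but BOLA-DQB1 Bt.7220.1.S1_at itself divided the arrays as it did. Probe sets that did not meet the rule were not searched for the same split. The rest of the 7 were BANP, PRSS2, a probe set annotated to several class I genes and a probe set without a symbol.

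The remaining probe sets called for cow had graded levels. BOLA-DRB3 Bt.28011.1.S1_at was high in cows 347 and 360, with 591 and 847 postpartum and 795 and 760 prepartum, against at most 304 postpartum and 368 prepartum elsewhere (adjusted p = 0.0189 in the F-test). BOLA-DQB1 Bt.4594.1.S1_at was low in cow 384, with 63.5 postpartum and 128 prepartum, where the other 10 cows had at least 243 postpartum and 289 prepartum (adjusted p = 0.0151). BOLA-DQB1 Bt.350.1.S1_at was high in cows 331 and 338, with 269 and 353 postpartum and 530 and 292 prepartum, against at most 179 postpartum and 180 prepartum elsewhere (adjusted p = 0.0413).

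BOLA-DQB1 Bt.350.1.S1_s_at, from the same design sequence, ran the other way in these cows. It was 540 and 697 in cows 331 and 338 postpartum and 857 and 540 prepartum, below the medians of 1189 postpartum and 1486 prepartum, and was also low in cows 330 and 346. The F-test gave an adjusted p of 0.00948. Probe sets that carry the symbol BOLA-DQB1 thus placed the cows in different orders: cow 384 was on the high side of Bt.7220.1.S1_at and lowest for Bt.4594.1.S1_at. The alpha chain probe set BOLA-DQA2 Bt.4751.2.S1_a_at was high in cows 331, 338 and 346, with 446, 474 and 514 postpartum and 660, 530 and 525 prepartum, against 138 to 461 postpartum and 207 to 391 prepartum in the other cows (adjusted p = 0.0104). The second BOLA-DQA2 probe set, Bt.4751.1.S1_a_at, had 80.7% of its variation between cows and narrowly missed the threshold (adjusted p = 0.0607).

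**Figure D4:**
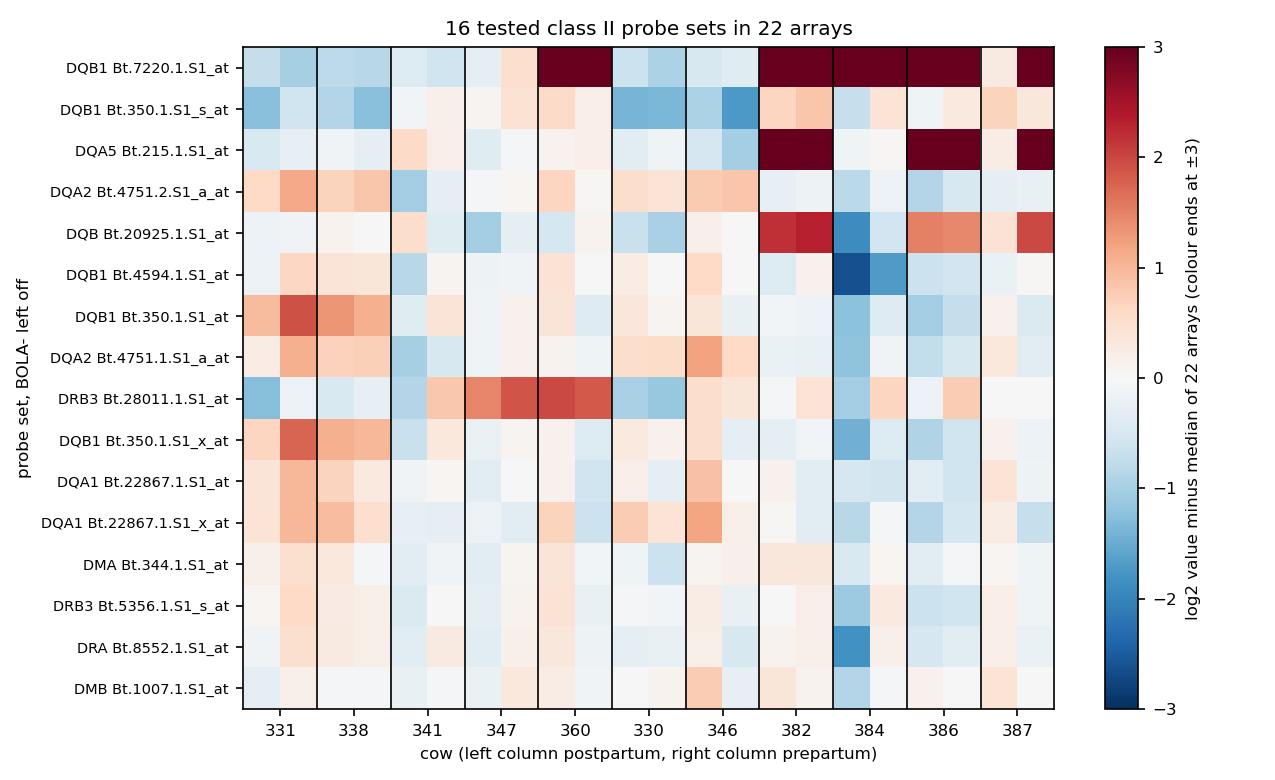
Colour map of the 16 tested class II probe sets (down the page) in 22 arrays (across, with the postpartum array left of the prepartum array in each cow), as the log2 value minus the probe set's median over 22 arrays. The 2 columns of cow 387 differ most in BOLA-DQA5, BOLA-DQB and a BOLA-DQB1 probe set. Over the 16 their median difference in size is 0.39, and it is larger in cows 331, 341, 346, 360 and 384, at 0.48 to 0.98. The column of cow 384 postpartum is blue in most.

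Taking the 16 tested class II probe sets as a profile, the postpartum array of a cow was nearest to her own prepartum array in 8 of 11 cows. The distance is the root mean square difference on the log2 scale. It includes the 2 probe sets with levels set by cow, whose gaps were 3.04 and 3.52. The same count was not made for other probe sets, so it is not shown to be particular to class II. The exceptions were cows 331 and 346, both nearest to the prepartum array of cow 338, and the pair labelled 387. In that pair the arrays were 1.63 apart, the own prepartum array ranked 10 of 11, and the nearest one was that of cow 341 at 0.49. Cow 384 was 1.08 from her own prepartum array, and the other 9 cows were 0.22 to 0.69 from theirs.

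Within a cow, most class II probe sets often changed in the same direction, and the direction differed between cows. The share of all probe sets that changed that way in each cow was not computed. The pattern is thus not shown to be particular to class II. At least 13 of the 16 were lower postpartum in 4 cows and at least 13 were higher in 3 cows. In cows 331, 347 and 384 only 1 of the 16 was higher, while in cow 360 it was 14 and in cows 338 and 346 it was 13. The changes in cow 338 were small, with a median of 0.08 and a median size of 0.13. The median change of the 16 ran between -0.98 in cow 384 and 0.60 in cow 346. These counts share probes' targets and an array, so they describe 1 sample pair each.

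The other genes of the pathway gave no calls for time. Of 15 listed regulators of class II 7 were tested and 0 were called, with a median change of -0.0029 against 0.01 over all tested; those with the greatest change were NFYC, a promoter-binding subunit, at 0.23 (SE 0.118, adjusted p = 0.292), and IRF8, a transcription factor of myeloid and B cells, at -0.27 (SE 0.182, adjusted p = 0.454). No regulator reached an unadjusted p under 0.05. Of 11 genes that cut and load antigen 10 were tested and 0 called by limma, with 1 at an unadjusted p under 0.05 and a median of 0.10. That gene was CTSB, a lysosomal protease, at 0.31 (SE 0.117, adjusted p = 0.152), followed in size by IFI30, a lysosomal thiol reductase, at 0.22 (adjusted p = 0.535).

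Class I presentation had 14 of 17 genes tested and 0 called by limma, with 1 at an unadjusted p under 0.05, 12 changes above 0 and a median of 0.14. Its greatest changes, in the heavy chain genes BOLA at 1.08 (adjusted p = 0.388) and BOLA-N at 0.81 (adjusted p = 0.395), rested on the pair labelled 387 and were 0.31 and 0.23 without it. Of 9 costimulation genes 6 were tested and 0 called by limma, with 3 at an unadjusted p under 0.05. ICAM1, an adhesion molecule for T cells, had -0.37 (SE 0.138, adjusted p = 0.158) and was lower in all but 1 cow. LGALS9, a galectin, had 0.34 (SE 0.123, adjusted p = 0.144) and was higher in 10 of 11.

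Markers of the cells that carry class II mostly had changes above 0. All 14 tested macrophage genes of 17 listed had a change above 0, with a median of 0.44, where 47.5% of all tested probe sets were below 0. Of the 14, 1 was called: CD5L, a scavenger protein of tissue macrophages, rose by 0.94 (SE 0.175, adjusted p = 0.0106 in limma, higher in 9 of 11 cows). CD68, a lysosomal protein of macrophages, had 0.65 (SE 0.35, adjusted p = 0.325). The summed signal of the 14 was 3378 to 16651 postpartum and 3170 to 7369 prepartum, highest in the postpartum array of 387. The median level of the 14 changed by 1.74 in the pair labelled 387 and by at most 0.96 in the other cows. It fell in cows 331, 347 and 386. The changes of the 14 genes are not given here without that pair. Of 13 dendritic cell markers 2 were tested, with 0 called, CD1B at 0.55 and FSCN1 at -0.17. Of 10 B and plasma cell markers 3 were tested, with 0 called and BLNK at 0.45 and MS4A1 at 0.38. Of 12 T cell markers 7 were tested, with 0 called and a median of 0.22, led by ZAP70 at 0.45 and CD3E at 0.36. Of 11 endothelial markers 9 were tested, with 5 changes above 0, 4 below 0 and a median of 0.12. Of the 9, 2 were called, VWF higher by 0.66 (adjusted p = 0.00392 in limma) and TEK by 0.61 (adjusted p = 0.0130). Of 11 adipocyte genes 10 were tested, with 3 changes above 0, 7 below 0 and a median of -0.36. Of the 10, 3 were called, LEP lower by 1.78, LPL by 1.18 and GPD1 by 0.93. Of 25 alternatives CD5L and TEK were called in 22 each, VWF in 21, LEP and LPL in 16 each and GPD1 in 11. The part of these markers in the class II values was not tested beyond the relations across cows that follow.

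Whether BOLA-DRA changed along with such markers from cow to cow was asked of 5 lists over 11 cows, using the change of the median level of each list's genes. With the 7 T cell genes Pearson's r was 0.78 (permutation p = 0.00536, adjusted over the 5 relations 0.0268) and Spearman's rho 0.75 (permutation p = 0.00956, adjusted 0.0478). It rested on the ends: without cows 384 and 346, which lay farthest from the median, r was 0.37 over 9 cows. Within the second array set r was 0.82 (exact permutation p = 0.0556, n = 6), and within the first set 0.70 (exact permutation p = 0.267, n = 5). Without the pair labelled 387 r was 0.86 over 10 cows, and without cows 384 and 387 it was 0.76. With the 3 B and plasma cell genes r was 0.61 (permutation p = 0.0208, adjusted 0.0520) and rho 0.55 (adjusted 0.206).

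The other lists gave no relation past the threshold. With 14 macrophage genes r was 0.38 (adjusted p = 0.243, permutation) and rho 0.38 (adjusted 0.310). With 2 dendritic cell genes r was 0.46 (adjusted p = 0.208, permutation) and rho 0.47 (adjusted 0.243). With 9 endothelial genes r was 0.50 (adjusted p = 0.234, permutation) but rho was -0.13 (adjusted 0.711), and without cows 384 and 346 r was -0.47. Within the array sets it was -0.78 in the first (exact permutation p = 0.0833, n = 5) and 0.77 in the second (exact permutation p = 0.286, n = 6). Without the pair labelled 387 the r of the macrophage, dendritic, B cell and endothelial lists was 0.26, 0.40, 0.71 and 0.47.

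**Figure D5:**
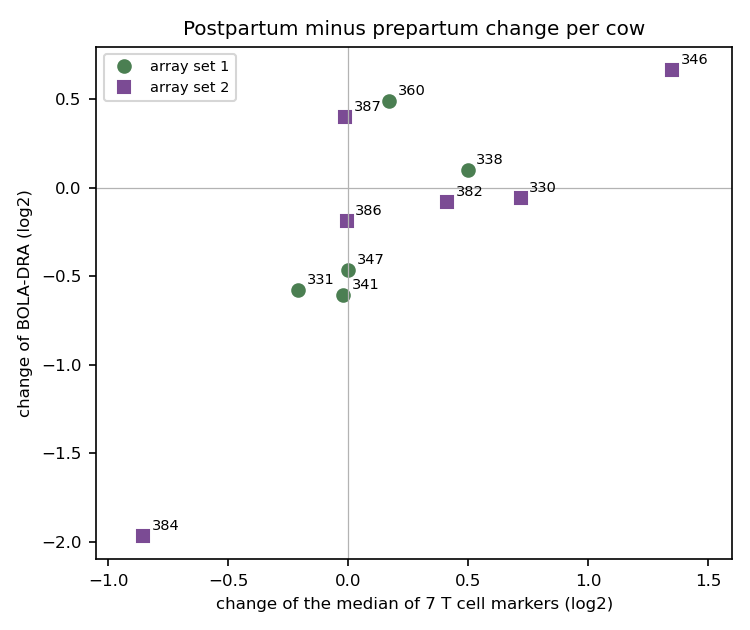
Change of BOLA-DRA against the change of the median of 7 T cell markers, both postpartum minus prepartum on the log2 scale, 1 point per cow, with array set 1 as green circles and array set 2 as purple squares. Cow 384 at the lower left and cow 346 at the upper right set the slope, and r over the other 9 cows is 0.37.

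The probe set most like BOLA-DRA over the 22 arrays among the class II members was BOLA-DRB3 Bt.5356.1.S1_s_at, with r = 0.90. BOLA-DQB1 Bt.4594.1.S1_at and BOLA-DQB1 Bt.350.1.S1_x_at followed at 0.73 each, and BOLA-DMB at 0.72 (0.69, 0.72 and 0.45 without cows 384 and 387), while BOLA-DQA5 and BOLA-DQB1 Bt.7220.1.S1_at were at -0.01 and -0.16. Outside class II the 8 named genes most like it were ARCN1 (0.87), ACTR2 (0.87), NUAK2 (0.86), SNX7 (0.85), NFIB (0.82), TPM3 (0.81), TMED7 (0.81) and COL5A2 (0.81). Arrays of a cow and the high muscle signal are shared by these values. Without cows 384 and 387 the 8 had r of 0.40 to 0.75, and BOLA-DRB3 Bt.5356.1.S1_s_at had 0.89.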

How the data were processed

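The authors deposited a table of Affymetrix signal intensities for 22 arrays, which the submitters' processing notes credit to MAS5; the software version, settings and genome build were not given in the sources used here. Values are linear with a trimmed mean of 125 (2% left out at each end) and array medians of 39.9 to 47.4. Of 24128 probe sets 112 controls were left out. The platform annotation gives 13292 of the rest 1 symbol, 86 several and 10638 none; 18 of the 20 members matched RefSeq's gene table.

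Signals were taken as log2(signal + 7.78). The 14410 probe sets with a mean of at least 5.05 (the 40th percentile) were tested with limma 3.58.1 in R 4.3.3 (trended variance, Benjamini-Hochberg adjustment). The block was the cow number in the titles, which by the labels marks 1 animal; the 2 arrays of a cow correlated at 0.18 to 0.43 in their deviations from the group means, and at -0.09 in the pair labelled 387. No 2 arrays held identical values. An F-test over cow coefficients tested cows. Correlations used 100000 permutations (scipy 1.17.1). The tests were checked on simulated data. The number of arrays limits precision.

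The members and gene lists were chosen with earlier results of these data known. All members are named, and in each pathway or immune cell list the called genes and the 2 with the greatest change, each by its brightest kept probe set. Filter, pseudocount, scaling, weights, array sets, left-out cows and the block were varied. CD74, planned for the same correlations, is the single symbol of no probe set.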

Additional observations from a re-analysis of the deposited data

How the results depend on the processing

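No class II probe set was called for time under any alternative run (limma, and the ordinary paired test), and 0 to 2 had an unadjusted p under 0.05. With no replicate block 338 of all probe sets were called against 494 with it, and 0 class II probe sets; of the called list genes VWF (adjusted p = 0.116) and GPD1 (0.101) were not called without the block, and CD5L, TEK, LEP and LPL were. The count over all probe sets moved to 291 in the ordinary paired test, 1076 with arrays weighted and 69 with just the 5 cows of array set 1. With just the 6 of array set 2 the count was 0 (limma, 1502 at an unadjusted p under 0.05). It was 1083 without cows 384 and 387, and 6 without cows 330, 331, 341 and 382, the cows with the highest KRT10 signal. Leaving out 1 cow gave 243 (cow 382) to 985 (cow 384), and the count moved by over 1.5 times without cow 330 (280), 341 (265), 346 (244), 347 (309) or 360 (265). For the cow effect the 60th percentile filter, which tested 13 class II probe sets, left 5 called, against 2.79% of all tested. BOLA-DQB1 Bt.7220.1.S1_at, BOLA-DQA5 and BOLA-DQB, called in the main run, were under that filter. Leaving out 1 cow left 5 (cow 382, against 1.35% of all tested) to 9 (cow 387, against 2.16%). Cows compared within array sets, array set 1 and cow 387 in the correlations, and the list genes under each setting were added after the data were seen. Of 392 recomputed changes 26 turned in sign, all in probe sets that were not called. BOLA-DMB was above 0 with quantile normalization (0.000699), a pseudocount of 32 (0.00386), array weights (0.0593), array set 2 alone (0.139), without cows 384 and 387 (0.0482) and without cows 330, 331, 341 and 382 (0.0725), and ran between -0.100 and 0.0822 with 1 cow left out. BOLA-DMA was 0.00708 with array weights and 0.0138 without cows 384 and 387 (-0.0692 to 0.0320 with 1 cow left out). BOLA-DQB1 Bt.350.1.S1_at was 0.00384 with array weights, 0.0556 in array set 2 and 0.113 without cows 330, 331, 341 and 382 (-0.136 to 0.0377 with 1 cow left out). BOLA-DQB1 Bt.350.1.S1_x_at was 0.0144 without those 4 cows, and BOLA-DQB1 Bt.7220.1.S1_at was 0.0181 without cows 384 and 387. The causes were not tested. The 2 probe sets with levels set by cow met the rule under every alternative gap, pseudocount and scaling run. BOLA-DQA1 Bt.22867.1.S1_at changed by 0.00 in array set 1 and 0.44 in array set 2, with no call for the difference. Low signal kept 4 class II probe sets out of the main test.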
